A study of Homo sapiens with 8 samples.

Results

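The BCL2 family decides whether the outer membrane of the mitochondrion stays closed. Here 10 of its genes were followed through the bulk RNA-seq libraries of U2OS cells: the anti-apoptotic members BCL2, BCL2L1 (BCL-XL), BCL2L2 (BCL-W), MCL1 and BCL2A1 (BFL1), the BH3-only members BCL2L11 (BIM), PMAIP1 (NOXA) and BID, and the effectors BAX and BAK1. The genes were listed by symbol, by a rule that uses none of their values, but with earlier results of these data known. They were matched to Ensembl identifiers through GENCODE release 29. All 10 are among the 58735 genes of the tables and among the 16528 genes that had enough reads to be tested. BCL2A1 had only 2 to 14 reads in each unstimulated library, and 76 to 217 in each library with TNF-α.

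U2OS is an established line from a human osteosarcoma. The cells had been transduced with lentivirus for a control shRNA (control cells) or for an shRNA against WSB2 (KD cells). Infected cells were selected with puromycin to make stable lines. WSB2 is a WD-repeat protein that recruits substrates to a cullin ubiquitin ligase. Each kind of cell was left unstimulated or given TNF-α for 5 h, which makes 4 groups of 2 libraries and 8 libraries in all. The number of lines per shRNA, the shRNA against WSB2 used for sequencing and the concentration of TNF-α are not given in the sources used here, and nothing says that the 2 libraries of a group came from separate cultures. The p-values therefore measure the spread between libraries, which may be technical.

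In a healthy cell the anti-apoptotic proteins hold BAX and BAK1 in check and bind the BH3-only proteins that would release them. Once freed, BAX and BAK1 form pores, cytochrome c leaves the mitochondrion and the caspases are activated. TNF-α engages both sides of this balance, because its receptor can activate caspase-8, which cleaves BID, while NF-κB switches on survival genes, with BCL2A1 and BCL2L1 among its known targets. Much of the control of MCL1, PMAIP1 and BAX acts on the protein, which transcript levels do not show.

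The values are FPKM, that is, fragments per length of a gene's exons and per library size, and rest on 15601098 to 18677023 reads per library. WSB2 itself fell from 27.9 ± 0.198 FPKM (SD, n = 2) in control cells to 8.45 ± 0.0955 (n = 2) in KD cells without TNF-α, and from 25.1 ± 0.196 (n = 2) to 9.09 ± 0.128 (n = 2) with it (log2 fold changes of -1.61 and -1.37, adjusted p = 0.000119 and 0.00113 in limma). Of 8 mesenchymal and osteoblast markers, 7 reached 1 FPKM in at least a single library (COL1A2 did not). In unstimulated control cells SPARC, COL1A1 and VIM averaged 283, 242 and 212 FPKM, but ALPL only 2.73 and RUNX2 1.84. All 8 leukocyte and all 4 endothelial markers stayed below 1 FPKM in all libraries, with CD68 at 0. So did 3 of 5 epithelial markers, but the others, KRT8 and KRT18, averaged 321 and 166 FPKM in unstimulated control cells. The markers thus did not all point to a mesenchymal line. The 2 unstimulated KD libraries stood apart from the other 6. Mitochondrial transcripts took 4.10% to 4.42% of their reads against 1.11% to 2.03% elsewhere. Weighted by reads, the GC content of the genes averaged 50.1% to 50.6%, compared with 53.2% to 53.8% in the other libraries. Reads fell on 26225 to 26397 genes, compared with 22072 to 22957. The 2 unstimulated control libraries differed most from each other: over genes with 50 or more reads in a pair, the variance between the libraries of a group was 30.1 times the sampling noise there and 2.45 to 7.23 times in the other groups. Comparisons that use the unstimulated KD libraries are given in 2 ways, as fitted and with each library's smooth dependence on GC content and exon length taken out.

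**Figure D1:**
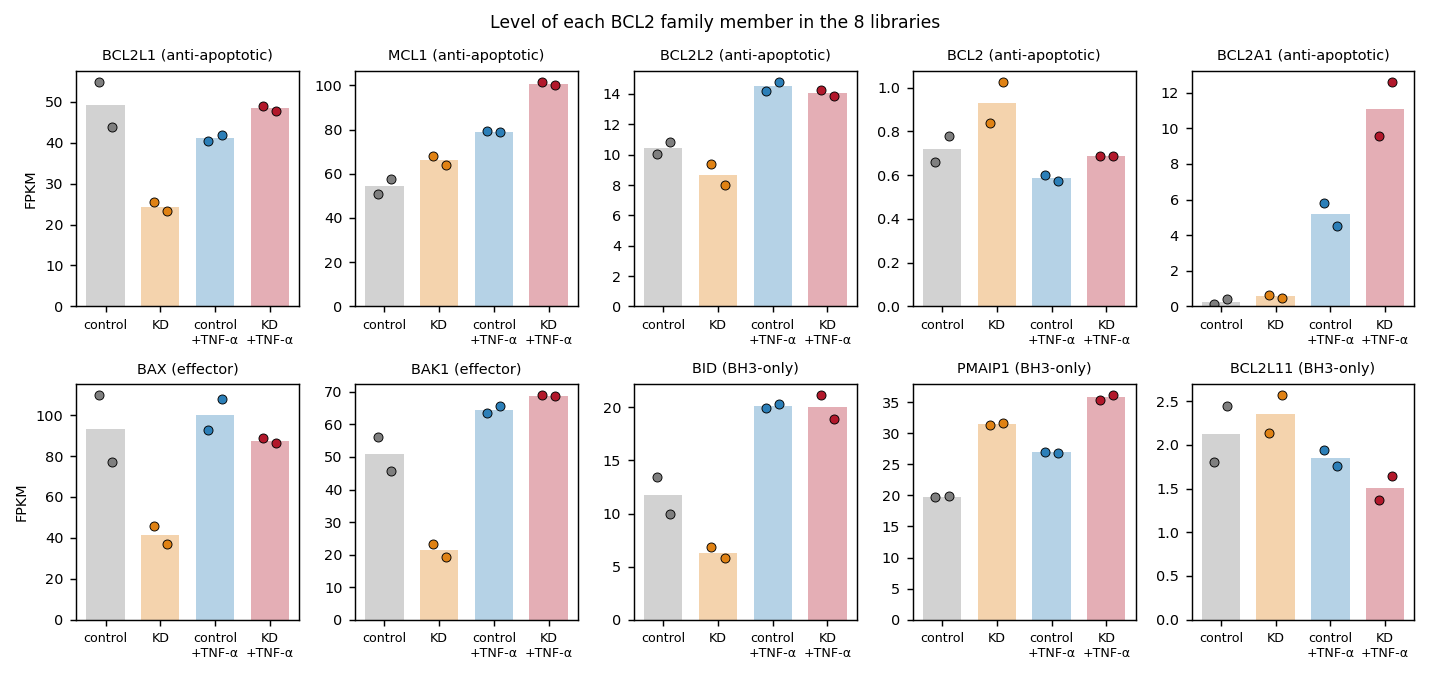
FPKM of each of the 10 members in the 8 libraries. Points are single libraries, bars are the mean of the 2 libraries of a group, and every panel has its own vertical axis starting at 0. BCL2A1 stands at 4.53 FPKM or more in the 4 libraries with TNF-α and at 0.649 or less in the other 4, while BAX, BAK1, BCL2L1 and BID are lowest in the 2 unstimulated KD libraries.

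The members spanned more than 2 orders of magnitude in level, which FPKM makes comparable between genes. In unstimulated control cells BAX was the most abundant, at 93.4 FPKM on average, followed by MCL1 at 54.3, BAK1 at 51.0 and BCL2L1 at 49.3. The library ranges of these last 3 genes overlapped, so their order was not resolved. PMAIP1 followed at 19.8 FPKM, then BID at 11.7 and BCL2L2 at 10.4, whose ranges also overlapped. BCL2L11 stood at 2.12, BCL2 at 0.719 and BCL2A1 at 0.273 FPKM. The founding member of the family was thus among the 3 scarcest of the 10 listed members in unstimulated control cells. In KD cells with TNF-α the order had changed in 2 places: MCL1 came first at 100.8 FPKM, above BAX at 87.5, and BCL2A1 had moved up to 11.1 FPKM, above BCL2L11 at 1.5 and BCL2 at 0.688. In all 3 groups other than the unstimulated control cells, the library ranges of neighbours in the order did not overlap.

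BCL2A1 showed the widest range of the 10. It encodes a short-lived anti-apoptotic protein best known from activated leukocytes, and lies on the minus strand of chromosome 15 from base 79960889 to base 79971446 (GRCh38). The 300 bases around its RefSeq start site, 250 before and 50 after it, are shown (minus strand, chr15:79971147-79971446, GRCh38.p14). They were chosen because its response is the largest among the 10 members. In GENCODE release 29 the longer transcript of the gene begins at the upstream end of this window, so the window lies within the annotated gene. The capitals mark TATAAA, at position -70 relative to the start site.

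BCL2A1: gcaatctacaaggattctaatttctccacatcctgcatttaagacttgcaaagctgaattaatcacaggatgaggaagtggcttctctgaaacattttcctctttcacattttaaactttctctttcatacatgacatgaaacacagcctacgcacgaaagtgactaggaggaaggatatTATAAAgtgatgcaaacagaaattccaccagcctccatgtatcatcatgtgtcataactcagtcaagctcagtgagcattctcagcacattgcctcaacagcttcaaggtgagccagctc

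PMAIP1, a BH3-only member that binds MCL1 and BCL2A1 and promotes the degradation of MCL1, lies on the plus strand of chromosome 18 from base 59899948 to base 59904306. Its window (plus strand, chr18:59899746-59900045, GRCh38.p14) is given because PMAIP1 had the lowest adjusted p of the 10 members when KD and control cells with TNF-α were compared. The capitals mark GGGCGG or its reverse complement, which occur 4 times, from position -146 to position -82 relative to the start site.

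PMAIP1: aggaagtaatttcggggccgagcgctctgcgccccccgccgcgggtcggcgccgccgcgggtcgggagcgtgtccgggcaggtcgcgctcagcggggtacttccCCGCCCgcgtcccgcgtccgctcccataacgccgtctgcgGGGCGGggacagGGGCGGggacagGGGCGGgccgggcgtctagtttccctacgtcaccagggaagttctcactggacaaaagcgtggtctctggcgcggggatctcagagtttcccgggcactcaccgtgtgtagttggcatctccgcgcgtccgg

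These windows differ in composition, with 41% GC for BCL2A1 and 71.3% for PMAIP1 against a median of 58.7% over the 35116 promoters of the table. Windows were found for 8 of the 10 members, 13 in all (MCL1 and BCL2L2 were not among them). On both strands, TATAAA occurred in the windows of BCL2A1 and BCL2L1 and in 11.5% of all promoters. GGGCGG occurred in 9 of the 13 windows and in 45.0% of all promoters. CACGTG occurred in 3 windows, of BAX and BID, and in 7.26% of all promoters. BID has 5 of the 13 windows and some of these overlap, so the same site can count in several windows. The κB consensus had no match in the 13 windows and matched 7.73% of all promoters. These counts say only which letters lie in the windows.

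The first comparison asks how the family responds to TNF-α in control cells. The cytokine raised 5 of the 10 members at an adjusted p under 0.05 in limma, against 3.1% of all genes tested. It lowered 0 of them, against 1.14% of all genes, and 0 also at an unadjusted p under 0.05 (7.31% of all genes) and with voom on the recovered reads. The 5 were BCL2A1, MCL1 and BCL2L2 on the anti-apoptotic side and BID and PMAIP1 among the BH3-only genes. The median log2 fold change of the 10 members was 0.38, and that of all genes tested 0.01. Fold changes are on the log2(FPKM + 1) scale, on which changes of scarce transcripts come out too small.

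BCL2A1 had 0.123 and 0.424 FPKM in the unstimulated control libraries and 5.83 and 4.53 FPKM in those with TNF-α. The groups were far apart, with 10 reads in the unstimulated pair and 177 in the stimulated pair. The log2 fold change was 2.28 ± 0.18 (SE, adjusted p = 0.000437), and the ratio of the reads, scaled to library size, was 18.2 with an exact 95% interval of 9.69 to 38.7 that covers counting error only. Leukocyte markers, which could accompany BCL2A1 in a mixed culture, summed to 0.283 to 0.529 FPKM in the unstimulated control libraries and to 0.486 to 0.678 FPKM in the stimulated ones. In bulk libraries, a larger share of cells with a transcript and more transcript per cell cannot be told apart.

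MCL1, which keeps BAK1 and the BH3-only proteins bound and has a rapid turnover, had 50.9 and 57.7 FPKM without TNF-α and 79.2 and 78.9 with it (log2 fold change 0.54 ± 0.09, SE, adjusted p = 0.0144). PMAIP1, its BH3-only partner, had 19.7 and 19.9 FPKM without and 27.0 and 26.8 with TNF-α (0.43 ± 0.07, adjusted p = 0.0131). Within libraries there were 2.74 ± 0.232 (SD, n = 2) MCL1 per PMAIP1 before and 2.94 ± 0.00349 (n = 2) after stimulation. In KD cells the ratio was 2.10 ± 0.111 (n = 2) without TNF-α, with both libraries below every control library, and 2.82 ± 0.0716 (n = 2) with it. BID, the substrate of caspase-8 downstream of death receptors, had 13.5 and 9.99 FPKM without and 20.0 and 20.3 with TNF-α (0.75 ± 0.14, adjusted p = 0.0283). BCL2L2, a relative of BCL2L1 that likewise sits on the mitochondrion, had 10.0 and 10.8 FPKM without and 14.2 and 14.8 with TNF-α (0.44 ± 0.09, adjusted p = 0.0440). The libraries of the groups did not overlap for any of these 4 genes, nor for 42.5% of all genes tested.

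The other 5 members did not pass the test in control cells. BAK1 had a log2 fold change of 0.34 ± 0.12 (adjusted p = 0.184, or 0.0325 with the GC and length trend removed), BAX of 0.12 ± 0.17, BCL2L1 of -0.24 ± 0.11, BCL2 of -0.12 ± 0.08 and BCL2L11 of -0.12 ± 0.14. BCL2L1, although a known NF-κB target, stood at 54.9 and 43.7 FPKM without and at 40.5 and 41.9 FPKM with TNF-α. The call of BCL2A1 held without any single library, but those of BID, MCL1 and PMAIP1 did not: without either control library with TNF-α their adjusted p was 0.111 to 0.169, and without either KD library with TNF-α 0.0506 to 0.0553, at log2 fold changes of 0.42 to 0.76. BCL2L2 kept its call only without the second unstimulated control library, and had an adjusted p of 0.0531 to 0.256 without each of the other 7. Without that second library BCL2L1 was called lower, at -0.40 (adjusted p = 0.0188), and 2130 genes in place of 701 were called in all.

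**Figure D2:**
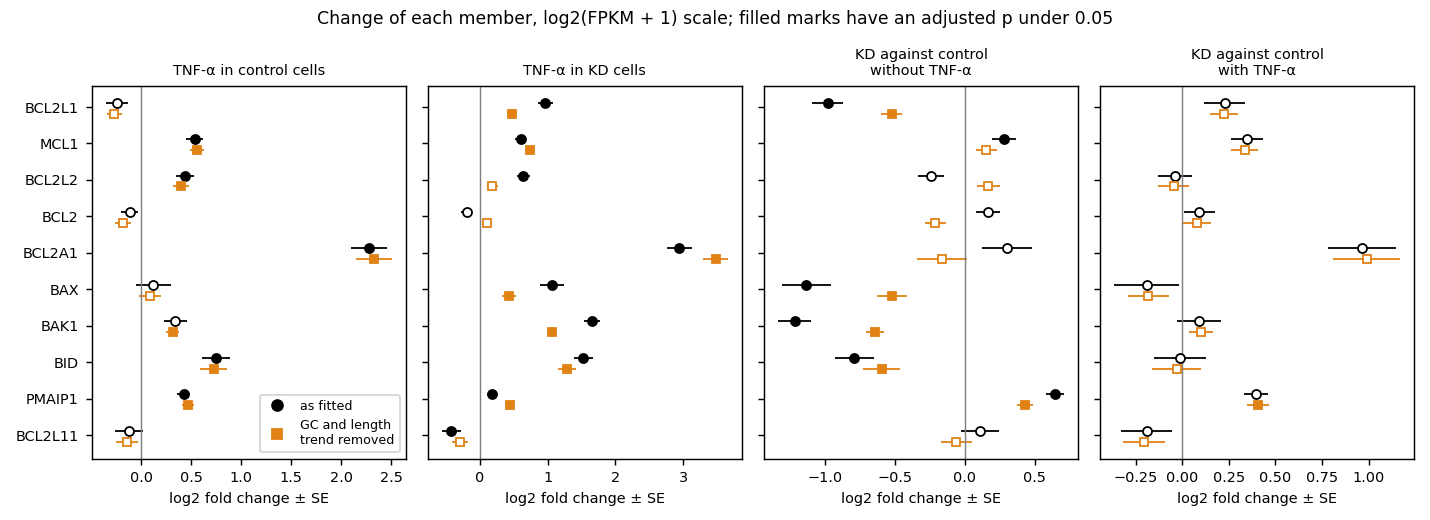
Log2 fold change of each member, on the log2(FPKM + 1) scale, in 4 comparisons, with its standard error. Black circles are the values as fitted and orange squares those after the GC content and length trend was removed; filled marks have an adjusted p under 0.05. The members lie close to 0 on the right, where KD and control cells are compared with TNF-α, apart from BCL2A1 at 0.96, PMAIP1 at 0.40 and MCL1 at 0.35.

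The comparison of KD with control cells after TNF-α asks whether loss of WSB2 changes the induced programme. None of the 10 members passed an adjusted p under 0.05 with limma, and none did with voom on the recovered reads, while 0.115% of all genes tested were called. At an unadjusted p under 0.05 there were 3 members, all higher in KD cells, against 4.42% of all genes higher and 3.73% lower. They were BCL2A1, PMAIP1 and MCL1. Libraries of the groups did not overlap for 8 members, 6 higher and 2 lower, and for 46.2% of all genes.

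With TNF-α, BCL2A1 had 5.83 and 4.53 FPKM in the control libraries and 9.57 and 12.6 FPKM in the KD libraries. The log2 fold change of 0.96 ± 0.18 had an adjusted p of 0.136 in limma, and was 1.08 with a pseudocount of 0.1 in place of 1. Its reads, 397 against 177, gave a scaled ratio of 2.12 (exact 95% interval 1.77 to 2.55, counting error only), so counting error alone is smaller than the difference. The unadjusted p was 0.000824, and the call was not made once p-values were adjusted over all 16528 genes. PMAIP1 had 27.0 and 26.8 FPKM in control and 35.4 and 36.1 in KD cells (0.40 ± 0.07, adjusted p = 0.117). It passed the test once the GC and length trend was removed (0.41 ± 0.06, adjusted p = 0.0422, when 0.254% of all genes were called higher), and also without the first (0.0305) or the second (0.0306) unstimulated control library, at a log2 fold change of 0.40 each time. MCL1 had 79.2 and 78.9 FPKM in control and 101.6 and 100.1 in KD cells (0.35 ± 0.09, adjusted p = 0.257).

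The remaining 7 members differed less. BCL2L1 stood at 0.23 ± 0.11, BAK1 at 0.09 ± 0.12, BCL2 at 0.09 ± 0.08, BID at -0.01 ± 0.14, BCL2L2 at -0.04 ± 0.09, BAX at -0.19 ± 0.17 and BCL2L11 at -0.19 ± 0.14. All 7 had an adjusted p of 0.668 or more, which leaves differences of the size of their standard errors unresolved. On the log2(FPKM + 1) scale no member passed the thresholds named in the study's methods, an unadjusted p under 0.05 with a log2 fold change beyond 1, and 0.109% of all genes did. This depended on the scale: BCL2A1 passed both thresholds with a pseudocount of 0.1 (1.08 ± 0.38, adjusted p = 0.487 in limma), as did 1.16% of all genes, and with voom (1.08 ± 0.22, adjusted p = 0.0813), as did 1.66% of all genes.

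Without TNF-α the same comparison looked different, and it rests on the 2 libraries that stand apart. In all, 6 members were called, against 60.1% of all genes tested. PMAIP1 and MCL1 were higher in KD cells (29.8% of all genes were), and BAK1, BAX, BCL2L1 and BID lower (30.2% of all genes were). A share near that of all genes is no result about the members, so the values are given as a description of these libraries.

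BAK1, an effector that resides on the mitochondrion in healthy cells, had 56.1 and 45.8 FPKM in the control libraries and 23.2 and 19.4 in the KD libraries (log2 fold change -1.22 ± 0.12, adjusted p = 0.000198). BAX, the effector that shuttles from the cytosol, had 109.8 and 77.0 FPKM in control and 45.9 and 37.1 in KD cells (-1.14 ± 0.17, adjusted p = 0.000962). Both effectors were lower in both KD libraries than in either control library. With 60.1% of all genes called in this comparison, that describes the libraries and is no result about the effectors. BCL2L1 had 54.9 and 43.7 FPKM in control and 25.5 and 23.2 in KD cells (-0.98 ± 0.11), and BID 13.5 and 9.99 against 6.82 and 5.79 (-0.79 ± 0.14). In the opposite direction, PMAIP1 had 19.7 and 19.9 FPKM in control and 31.3 and 31.7 in KD cells (0.64 ± 0.07, adjusted p = 0.000225), and MCL1 50.9 and 57.7 against 68.1 and 64.0 (0.28 ± 0.09, adjusted p = 0.0226). MCL1 was no longer called without the first (0.24, adjusted p = 0.120) or the second (0.32, 0.0530) unstimulated KD library, nor without either KD library with TNF-α (0.0518 each). BCL2L2 was not called at -0.24 ± 0.09 but was without the first unstimulated control library (-0.29, 0.0430) or the first unstimulated KD library (-0.34, 0.0301). BCL2, the founding anti-apoptotic member, was not called at 0.17 ± 0.08 but was called higher on the scale of total reads (0.31 ± 0.09, adjusted p = 0.0203), and with the GC and length trend removed it stood at -0.21 (0.0511).

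These changes ran with GC content. The exons of BAK1, BAX, BCL2L1, BCL2L2 and BID hold 51.6% to 60.4% GC, and all 5 genes had lower values in KD cells, whereas the 5 members with 40.3% to 46.8% GC had higher ones. Over all genes tested the median log2 fold change fell from 0.73 at a GC content of about 35% to -0.65 at about 67%. With the GC and length trend removed, BAK1 was at -0.64 ± 0.06, BID at -0.60 ± 0.13, BCL2L1 at -0.52 ± 0.08, BAX at -0.52 ± 0.11 and PMAIP1 at 0.43 ± 0.06. These 5 kept their call (23.3% of all genes were then called higher and 27.9% lower). MCL1, at 0.15 ± 0.07, lost it. Mesenchymal markers summed to 581 to 596 FPKM in the unstimulated KD libraries and to 744 to 845 in the other 6, and the epithelial markers, led by KRT8 and KRT18, to 202 to 217 against 426 to 549. The part that composition, library quality or the share of mitochondrial reads has in these results was not tested.

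**Figure D3:**
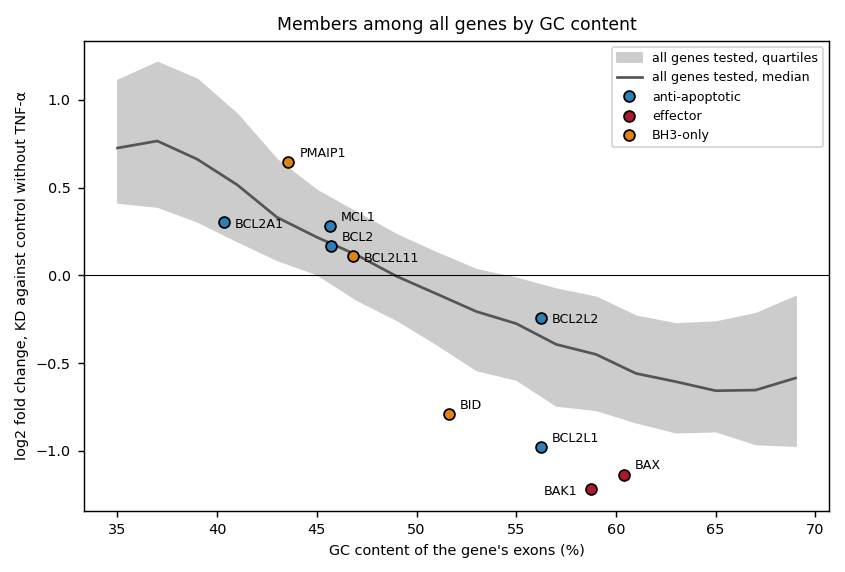
Log2 fold change of KD against control cells without TNF-α, on the log2(FPKM + 1) scale, against the GC content of each gene's exons. The grey line and band are the median and quartiles of all genes tested in bins of GC content, and coloured points are the 10 members. The 5 members above 51% GC lie below 0 and the 5 below 47% lie above it, as does the median of all genes at those contents, and BAK1, BAX, BCL2L1 and BID lie below the lower quartile.

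TNF-α in KD cells, read against the same 2 libraries, changed 9 of 10 members, 8 upwards and BCL2L11 downwards, while 31.1% of all genes tested were called higher and 31.4% lower. BCL2A1 had 0.649 and 0.476 FPKM without and 9.57 and 12.6 FPKM with TNF-α, a scaled read ratio of 19.6 (exact 95% interval 13.0 to 30.9). That interval contains the ratio of 18.2 in control cells. BAK1 rose from 23.2 and 19.4 to 69.0 and 68.6 FPKM (1.65 ± 0.12) and BID from 6.82 and 5.79 to 21.2 and 18.9 FPKM (1.53 ± 0.14). BAX (1.07 ± 0.17), BCL2L1 (0.96 ± 0.11), BCL2L2 (0.64 ± 0.09) and MCL1 (0.60 ± 0.09) rose as well. BCL2L11, a BH3-only gene under FOXO control in many cells, had 2.14 and 2.57 FPKM without and 1.37 and 1.64 with TNF-α (-0.42 ± 0.14). With the GC and length trend removed 7 members were higher (28.9% of all genes), BCL2L2 (0.18, adjusted p = 0.0927) and BCL2L11 (-0.29, 0.0559) having lost their call.

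The small rise of PMAIP1 in KD cells, 31.3 and 31.7 to 35.4 and 36.1 FPKM (0.18 ± 0.07), depended on the scaling. Scaling to total reads in place of the size factors takes the median log2 fold change of all genes from -0.001 to 0.13 for KD against control without TNF-α. It goes from -0.015 to -0.19 for TNF-α in KD cells and from 0.005 to -0.14 for the interaction. The medians move since the unstimulated KD libraries had been divided by sizes 1.21 times their totals. With the GC and length trend removed the rise was 0.44 ± 0.06. On the scale of total reads PMAIP1 was called lower (-0.19, adjusted p = 0.0429) and MCL1 was not called (0.23, 0.0706). PMAIP1 was also not called without any of the 6 libraries other than the unstimulated control ones (0.0863 to 0.216). BCL2L11 lost its call without the second unstimulated KD library (-0.33, 0.162) or either KD library with TNF-α (-0.34, 0.151 and -0.50, 0.0509). The share of calls that were higher went, with the same change of scaling, from 49.7% to 65.3% for KD without TNF-α and from 49.8% to 31.4% for TNF-α in KD cells.

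Whether the effect of the knockdown depends on TNF-α was tested as an interaction, which called 4 members, all higher, against 23.8% of all genes called higher and 22.3% lower. They were BAK1 (1.31 ± 0.17, adjusted p = 0.00166), BCL2L1 (1.21 ± 0.16, 0.00174), BAX (0.95 ± 0.25, 0.0163) and BID (0.78 ± 0.20, 0.0143). Each was called lower in KD cells without TNF-α and was not called with it. The comparisons share libraries, so their values are not independent of each other. With the trend removed BAK1 (0.75) and BCL2L1 (0.75) were called, and BAX (0.34, adjusted p = 0.121) and BID (0.56, 0.0518) were not. BCL2A1 was called as well (1.15, 0.0143), when 19.1% of all genes were called higher. The value of BCL2A1 depended on the scale. It was 0.14 with a pseudocount of 0.1 (adjusted p = 0.853 in limma) and -0.020 with voom (0.986). Its reads in KD and control cells without TNF-α, 24 against 10, gave a scaled ratio of 1.98 (exact 95% interval 0.913 to 4.64, counting error only), beside 2.12 with TNF-α. BAX lost its call without the second unstimulated KD library (0.0631), the first control library with TNF-α (0.0621) or the first KD library with TNF-α (0.0509), at log2 differences of 0.80 to 0.93. BID lost it without the second unstimulated KD library (0.0562) or the first KD library with TNF-α (0.0551). BCL2A1, at an uncorrected 0.66, was called without the first unstimulated control library (0.83, 0.0356) or the first KD library with TNF-α (0.84, 0.0481). PMAIP1 was called lower without the first (-0.24, 0.0385) or the second (-0.25, 0.0286) unstimulated control library.

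Ratios within a library do not depend on how libraries were scaled to each other, although they do carry differences in GC content. The summed FPKM of the 5 anti-apoptotic members over that of BAX and BAK1 was 0.814 ± 0.157 (SD, n = 2) in unstimulated control cells and 0.855 ± 0.0607 (n = 2) with TNF-α. In KD cells it was 1.61 ± 0.143 (n = 2) without and 1.12 ± 0.0128 (n = 2) with TNF-α. With TNF-α the control libraries, at 0.812 and 0.898, lay below the KD libraries, at 1.11 and 1.13. No p is given, since a two-sided exact permutation test of 2 libraries against 2 cannot go below 0.333.

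**Figure D4:**
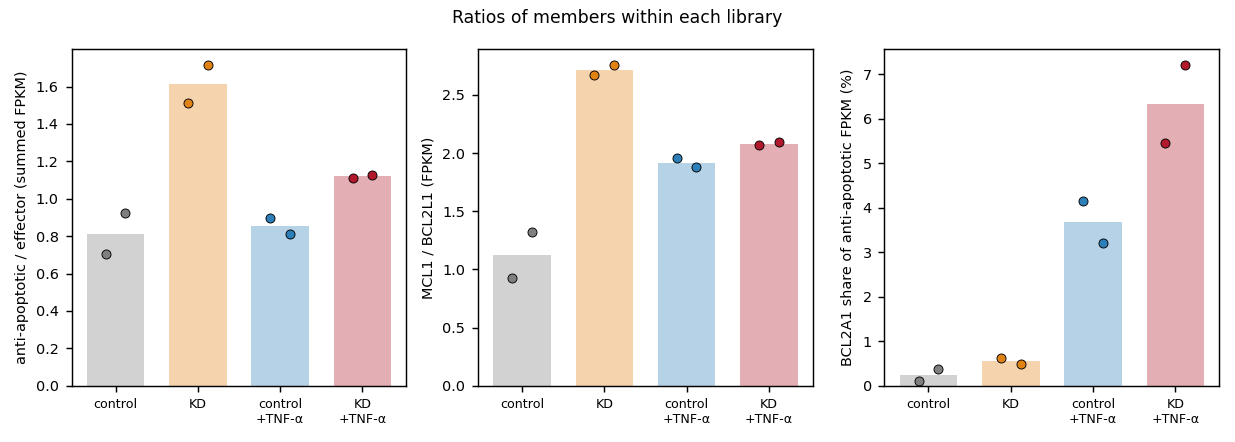
Ratios of members within each library: summed FPKM of the 5 anti-apoptotic members over that of BAX and BAK1 (left), MCL1 over BCL2L1 in FPKM (middle), and BCL2A1 as a percentage of the summed anti-apoptotic FPKM (right). Points are libraries, bars are means of 2, and all axes start at 0. The unstimulated KD libraries have the highest values on the left (1.51 and 1.71) and in the middle (2.67 and 2.75), and the KD libraries with TNF-α have the highest on the right (5.46% and 7.20%).

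The make-up of the anti-apoptotic side shifted as well. MCL1 and BCL2L1 were near parity in unstimulated control cells, at 1.12 ± 0.278 (n = 2) MCL1 per BCL2L1, and MCL1 was in excess in the other groups, at 1.92 ± 0.0526 (n = 2) in control cells with TNF-α, 2.71 ± 0.0580 (n = 2) in unstimulated KD cells and 2.08 ± 0.0165 (n = 2) in KD cells with TNF-α. MCL1 made up 47.3% of the anti-apoptotic FPKM in the first of these groups and 56.3%, 65.7% and 57.6% in the others, in that order. BCL2A1 contributed 0.239% and 0.556% in unstimulated control and KD cells, and 3.68% and 6.33% with TNF-α. BAX exceeded BAK1 in all groups, with group means of 1.27 to 1.95 BAX per BAK1.

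Some members share exon bases with other genes, and the sources used here do not say whether reads were counted by strand. BCL2L1 shares 1424 of its 3314 exon bases with ABALON on the opposite strand, which had 56 to 105 reads a library against 1487 to 2811 for BCL2L1. BCL2L11 shares 727 bases with MIR4435-2HG, also on the opposite strand and with 1178 to 2393 reads a library against 157 to 330 for BCL2L11. Without strand, reads from the shared bases of such a gene and its partner cannot be told apart. The levels of BCL2L1 and BCL2L11 are therefore uncertain, and so are ratios and orders that use them. BCL2L2 shares 813 bases with the read-through gene BCL2L2-PABPN1 on its own strand, which had 8 reads in all libraries together. Strand could not separate these 2 genes, so the level of BCL2L2 is uncertain too.

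The rest of the family was followed through a list of 15 further genes, 12 of them tested. The list counts BCLAF1, which was named for binding BCL2 and is not a member of the family. With TNF-α in control cells BIK and BBC3 (PUMA), both BH3-only genes, rose (3.1% of all genes did) and BMF, another, fell (1.14% of all genes did). BBC3 had 11.8 and 11.1 FPKM without and 21.5 and 23.3 with TNF-α (0.91 ± 0.12, adjusted p = 0.00697), BIK 3.15 and 2.00 against 6.07 and 7.08 (1.10 ± 0.18, adjusted p = 0.0179). BIK was not called in every setting of limma or voom that kept all libraries of both groups (adjusted p up to 0.0878), and BBC3 was (up to 0.0435). Without single libraries the log2 fold change ranged from 0.86 to 1.33 for BIK and from 0.86 to 0.97 for BBC3. Neither gene kept its call in all of these fits. BMF went the other way, from 1.13 and 1.23 to 0.162 and 0.119 FPKM (-0.93 ± 0.07, adjusted p = 0.000336). The median of the 12 was 0.02. When KD and control cells with TNF-α were compared, 0 of the 12 were called by limma or voom, and 2 had an unadjusted p under 0.05. In that comparison limma also called 0 of 13 caspase and apoptosome genes (1 at an unadjusted p under 0.05), 0 of 6 inhibitor of apoptosis genes (1), 0 of 9 death receptors and adaptors (2, and 1 with voom), 0 of 8 mitochondrial channel and fission genes (0) and 0 of 11 transcription factors (3), and voom called 0 in the lists other than the receptors. Among the enzymes that act on MCL1 or on BH3-only proteins, of which 9 were tested, WSB2 itself was the only call in that comparison. BAD, a BH3-only gene held inactive by phosphorylation, and BOK, a relative of BAX, were abundant: BAD had 33.3 and 22.3 FPKM in unstimulated control cells and BOK 68.3 and 58.3 FPKM. With TNF-α BOK was at 61.8 and 70.2 FPKM in control and 53.1 and 52.0 in KD cells, a difference of -0.32 ± 0.10 that did not pass the test (adjusted p = 0.425).

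Upstream and downstream of the family, several receptors, adaptors and caspase inhibitors rose with TNF-α in control cells. Of 9 death receptor and adaptor genes tested, 4 rose, where 3.1% of all genes did: TRAF1 by 4.43 on the log2 scale, TNFRSF10B, a TRAIL receptor, by 1.14, TRAF2 by 0.65 and CFLAR, the inhibitor of caspase-8, by 0.62. CFLAR lost its call with the GC and length trend removed (0.54, adjusted p = 0.0548). Of 6 inhibitor of apoptosis genes, BIRC3 (2.78) and BIRC2 (1.2) rose. Of 11 transcription factors, 4 rose, with NFKB1 at 1.95, MYC at 1.04 and RELA at 0.51 among them. Of the 13 caspase and apoptosome genes, the 8 mitochondrial genes and the 9 enzymes, 0 were called in limma and 0 with voom, and 1 in each list had an unadjusted p under 0.05. List medians in this comparison were 0.19 for the receptors, 0.38 for the inhibitors, 0.23 for the transcription factors, 0.05 for the caspases, 0.06 for the mitochondrial genes and 0.12 for the enzymes, beside 0.01 for all genes.

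When unstimulated KD and control cells were compared, these lists split in both directions, as did all genes (29.8% higher and 30.2% lower). The list of other family members had 2 higher and 6 lower, with a median of -0.22. BCLAF1 (1.80), which acts on RNA, was among the higher genes, and BAD (-1.51), BOK (-1.30) and BCL2L12 (-1.03) led the lower ones. The caspase and apoptosome genes had 2 higher, APAF1 (1.11) among them, and 4 lower, led by ENDOG (-1.18) and HTRA2 (-0.82). BIRC6 (1.85), BIRC2 (1.73) and BIRC3 (0.98) were among 4 inhibitors called higher, and BIRC5 (-0.94) was the single lower call. Receptors and adaptors had 2 higher, FAS (0.89) among them, and 4 lower, TRAF2 (-1.04), FADD (-0.90) and TRADD (-0.84) among them. Of the mitochondrial genes, OPA1 (1.60), MFN1 (1.29) and DNM1L (1.15), which fuse or divide mitochondria, were higher and 4 were lower, MTCH2 (-0.66) among them. Of the enzymes 4 were higher, USP9X (1.53), a deubiquitinase of MCL1, and CUL5 (1.45) leading, and WSB2 (-1.61) was lower. The transcription factors had 2 higher (REL, 0.65, among them) and 6 lower, with E2F1 (-0.96), ATF4 (-0.81) and RELA (-0.77) leading. With the GC and length trend removed, BIRC3 (0.14), TRADD (-0.17) and REL (-0.20) were no longer called, and APAF1 (0.45), BAD (-0.83), BOK (-0.64), BIRC2 (1.15), BIRC6 (1.15) and OPA1 (0.75) were.

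The response to TNF-α in KD cells went in both directions too (31.1% of all genes higher and 31.4% lower). There were 5 higher and 3 lower among the 12 genes in the list of other family members. The caspases and apoptosome had 3 and 3, and the inhibitors 3 and 3. Receptors and adaptors had 7 higher and 1 lower, and the transcription factors 7 higher and 1 lower, led by TRAF1 (5.09) and NFKB1 (2.38). The mitochondrial genes had 4 higher and 3 lower, and the enzymes 0 higher and 3 lower. BBC3 rose from 6.33 and 4.64 to 18.7 and 19.1 FPKM and BIK from 1.59 and 1.14 to 7.17 and 5.91 FPKM, while BMF fell from 0.778 and 0.904 to 0.138 and 0.151 FPKM. These 3 BH3-only genes were called in the same directions in control cells and, with the GC and length trend removed, in KD cells (0.93, 1.23 and -1.11).

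Genes with a pattern like a member's were looked for where the member's 4 group means spanned more than 1 on the log2 scale, which held for BCL2A1, BAK1, BID and BAX. Likeness was the mean absolute difference between the centred group means, over 4 groups. Nearest to BCL2A1 came CCL20 (0.11), a chemokine, and IL23A (0.22), a cytokine subunit, with AL355032.1 (0.24) after them. Nearest to BID were PSMB10 (0.02), CDC42EP5 (0.03) and ARID5A (0.04), to BAK1 COMMD5, ATG101 and ADPRHL2 (0.02 each), and to BAX ZNF511, AC008038.1 (0.01 each) and EEF1AKMT4 (0.02). BCL2A1 thus had no neighbour as close as those of the other 3 genes, which are all lowest in unstimulated KD cells. Its group means spanned 3.25 on the log2 scale, against 1.26 to 1.65 for these, and differences were not scaled by span.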

How the data were processed

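RNA-seq libraries of U2OS cells were analysed in 4 groups of 2, taken from the titles of the samples. The members and the gene lists were chosen with earlier results of these data known. Per the labels, the submitters' processing notes name CASAVA 1.8, fastp, HISAT2 2.0.5, featureCounts 1.5.0-p3 and DESeq2 1.20.0, and GRCh38. The authors deposited FPKM values per gene and library, and these were matched to GENCODE release 29 for all 58735 genes. Multiplied by exon length, 100% of the values of a library came out as whole reads (tolerance 0.1) times the same factor, which gave 15601098 to 18677023 reads per library. These factors show that the authors divided by sizes other than the totals, 0.925 to 1.21 times as large.

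The filter on low reads asked for 10 reads, at median depth, in 2 or more libraries and for 15 in total, and left 16528 genes. log2(FPKM + 1) was fitted with limma 3.58.1 (R 4.3.3), with a mean per group over all 8 libraries, variances moderated with a trend, 4 residual degrees of freedom and a two-sided test. Calls had a Benjamini-Hochberg adjusted p under 0.05 over all genes tested, in each of 5 comparisons. The study's methods name edgeR, which was not run here. The deposited values are FPKM, so limma on the log scale was the main test, and voom on the recovered reads was another setting. The fit was tested on simulated data. The GC and length trend was a spline with 5 degrees of freedom per library, over 16520 genes. Other settings tried were upper-quartile factors, total reads, a pseudocount of 0.1, no filter, a mean of 1 or more CPM, voom on recovered reads, only the libraries compared, leaving out libraries and a replicate block. From each other list, at most the 4 called genes with the largest fold change were named per comparison, and BBC3, BAD, BMF, BIK and BOK always. Some genes that this rule would name are not reported here. In the list of enzymes 9 of 10 symbols matched the annotation. Intervals of read ratios are exact and cover counting error only. Promoter sequences are from RefSeq on GRCh38.p14. Tables were made in Python 3.11.15 (pandas 2.3.3, numpy 2.4.6) and plots with matplotlib 3.10.9.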

Additional observations from a re-analysis of the deposited data

Results flagged for a closer look

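For 4 of the 10 members the effect of the knockdown differed between unstimulated and stimulated cells, by the test of the difference itself in limma. In that test 23.8% of all genes were called higher and 22.3% lower. The KD effect with TNF-α exceeded that without it by 1.31 ± 0.17 (SE, log2 scale) for BAK1, by 1.21 ± 0.16 for BCL2L1, by 0.95 ± 0.25 for BAX and by 0.78 ± 0.20 for BID, with adjusted p of 0.00166, 0.00174, 0.0163 and 0.0143. All 4 rest on the 2 unstimulated KD libraries, whose share of mitochondrial reads and GC content stand apart, and the part of these in the difference was not tested. With the GC and length trend removed the difference was 0.75 for BAK1 and 0.75 for BCL2L1, both still called, and 0.34 for BAX and 0.56 for BID, no longer called. Groups of 2 libraries were too small for a test of single outlying values. Between the 2 unstimulated control libraries, which also enter these differences, the variance was 30.1 times the sampling noise, and 2.45 to 7.23 times in the other groups.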

How the results depend on the processing

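With 2 libraries a group, an effect as small as most of those of the members with TNF-α cannot be resolved, and for BCL2A1 without TNF-α the 2 to 14 reads per library are the limit. Scaling to total reads multiplies all genes of a library alike, so it cannot move the order of members within a library. The order by group mean stayed the same as well. It could have moved only in unstimulated control cells, where ranges of neighbours overlapped. Log2 fold changes of the members changed sign 18 times over all comparisons and settings, and only the PMAIP1 value below was called on either side. The cause was not tested for any of the changes below unless fewer genes or libraries explain it by construction.

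For KD against control with TNF-α, 19 genes were called, and 7 without the filter on low reads (which tests more genes) or without the unstimulated KD libraries, 52 with voom, 39 with only the libraries compared, and 64 with the GC and length trend removed, when 1 member (PMAIP1) was called higher. Leaving out single libraries gave 0 to 98 genes and 0 to 1 members higher, and BID ranged from -0.089 to 0.066. Without TNF-α, 1 member in place of 2 was called higher with only the libraries compared or with the trend removed, and 1 to 2 without single libraries, when BCL2L11 ranged from -0.040 to 0.255. With the trend removed BCL2 (-0.21), BCL2L2 (0.17), BCL2A1 (-0.16) and BCL2L11 (-0.060) changed sign, as did BCL2L2 (0.013) with total reads.

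For TNF-α in control cells, 701 genes were called, and 368 without the filter, 238 with only the libraries compared and 443 without the unstimulated KD libraries. Members called higher numbered 3 without the filter and 1 with only the libraries compared, in place of 5. Leaving out single libraries gave 229 to 2130 genes (the highest without the second unstimulated control library), 1 to 5 members higher and 0 to 1 lower, and ranges of -0.270 to 0.025 for BCL2L11 and -0.13 to 0.37 for BAX. In KD cells, members called lower numbered 2 with upper-quartile factors, 3 with total reads, 0 without the filter, 2 with voom, 0 with the trend removed and 0 to 1 without single libraries, in place of 1. BCL2 was the added gene with upper-quartile factors (-0.24) and voom (-0.42), and with total reads (-0.37) beside PMAIP1. BCL2 was at 0.11 with the trend removed and PMAIP1 at -0.19 with total reads. PMAIP1 was also not called there with a pseudocount of 0.1 (adjusted p = 0.0516), upper-quartile factors (0.321), a mean of at least 1 CPM (0.0560) or voom (0.106).

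For the interaction, 2 members in place of 4 were called higher without the filter and 1 in place of 0 lower with upper-quartile factors, with total reads or without the filter. Leaving out single libraries gave 2 to 5 higher and 0 to 1 lower, and MCL1 ranged from -0.022 to 0.156. BCL2 (0.29) and BCL2L2 (-0.21) changed sign with the trend removed, BCL2L2 (-0.072) and MCL1 (-0.23) with total reads and BCL2A1 (-0.020) with voom. The share of calls that were higher went from 51.7% to 32.9% with total reads, and for TNF-α in control cells from 73.0% to 60.3%.

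The differences between replicates 1 and 2 correlated above 0.1 in 1 of 6 pairs of groups (r of -0.324 to 0.489), so the numbers were not taken to pair the libraries throughout. The pair at 0.489 was unstimulated control and KD cells, and whether these share a batch was not tested. There 9761 genes in place of 9928 were called with the block. With the replicate number as a block, 10 genes in place of 19 were called for KD against control with TNF-α, BCL2L2 was not called for TNF-α in control cells (0.44, adjusted p = 0.0737) nor PMAIP1 for TNF-α in KD cells (0.18, 0.0720), and the calls of the other members were as without it.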
